A study of Homo sapiens with 4 samples.

Results

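The 7 genes described here encode secreted proteins, several of which cells release under stress or low oxygen. They are ANGPTL4, GDF15, the stanniocalcins STC1 and STC2, and the vascular endothelial growth factors VEGFA, VEGFB and VEGFC. All 7 symbols were looked up among the 62893 Ensembl genes of the deposited table, each matched 1 gene, and all 7 passed the filter on low counts. ANGPTL4 and GDF15 had been picked for how much higher they were after the knockdown, so their differences are given as a description with no test. The other 5 had not been picked for their rises, and their tests are given. All 7 were chosen with earlier results of these data known, so these tests are not independent of that choice.

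The cells were T24, a line derived from a human bladder carcinoma. They carried either siRNA against NSUN2 (siNSUN2, 2 libraries), the gene of an RNA methyltransferase that makes 5-methylcytosine, or control siRNA (siControl, 2 libraries). No other treatment is named in the labels, and the siRNA sequences are not named in them. Poly(A) RNA was sequenced. Nothing in the labels says whether libraries with the same siRNA came from separate cultures, so p-values reflect library-to-library spread alone, possibly a technical one.

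Several of these proteins are read as signals by other tissues. ANGPTL4 inhibits lipoprotein lipase and is induced by fatty acids through PPAR receptors and by low oxygen. GDF15 is a divergent member of the TGF-beta superfamily that rises in many kinds of cell stress and acts on the receptor GFRAL in the hindbrain. The VEGF ligands drive growth of blood vessels (VEGFA) and lymphatic vessels (VEGFC), and the stanniocalcins inhibit the protease PAPP-A, which releases insulin-like growth factors from a binding protein. HIF factors, ATF4, p53 and PPARs are known to switch on different members of this group.

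Totals ran from 33633249 to 215936965 counts per library, so 1 CPM, the unit of depth-scaled counts used below, stood for 33.6 to 216 counts, and CPM values were scaled with TMM factors of 0.985 to 1.02. NSUN2 itself was at 29.6 and 30.1 CPM in siNSUN2 cells, against 281 and 284 CPM in siControl cells. Of the T24 markers KRT7, KRT8, KRT18, VIM, CD44, EGFR and AXL were expressed, whereas KRT19 was at or near 0. The summed markers of endothelial cells came to 8.54 and 20.2 CPM in siNSUN2 libraries, against 3.48 and 2.93 CPM in siControl libraries, with VWF at 1.80 and 8.73 CPM against 0.165 and 0.113 CPM. Of the 7 endothelial markers, 4 were tested and ESAM was called, beside 27.1% of all genes called higher. ESAM was at 5.93 and 7.65 CPM in siNSUN2 libraries against 2.68 and 2.50 CPM in siControl libraries. CDH5 and TIE1 were at most 1.87 CPM in any library, and PECAM1, a defining marker, was at 0 counts in all. The annotation used for counting is not stated, so absence of PECAM1 transcripts and a gap in the counting cannot be told apart. The part of these markers in the results was not tested. Summed leukocyte markers were at 1.52 and 3.80 CPM in siNSUN2 libraries, against 1.01 and 0.87 CPM in siControl libraries. Summed fibroblast markers were at 3.14 and 3.65 CPM against 1.04 and 2.62 CPM. Of the 2 fibroblast markers tested, COL1A1 was called higher (2.92 and 3.3 CPM against 0.847 and 1.64 CPM, edgeR adjusted p = 0.0118). In each of the endothelial, leukocyte and fibroblast sums siNSUN2 replicate 2 stood highest. Without that library the log2 fold changes of the 7 genes were 2.78 for ANGPTL4, 2.18 for GDF15, 1.55 for STC1, 0.71 for STC2, 0.15 for VEGFA, 0.56 for VEGFB and 1.07 for VEGFC.

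In ANGPTL4 and GDF15, by their selection, both siNSUN2 libraries lay above both siControl libraries. The same held for the 5 genes not picked for their rises, STC1, STC2, VEGFA, VEGFB and VEGFC. Of the 16889 genes tested, 38.6% showed this pattern in that direction and 36% in the opposite one. These 5 all passed the test upward, beside 27.1% of all genes tested called higher, 25.5% called lower and 52.6% called in either direction. Of the 5, STC1 and VEGFC rose at least 2-fold, as did 5.5% of all genes. The size of the difference ran from 1.1-fold for VEGFA to 6.8-fold for ANGPTL4. Transcripts of high GC content were higher as a class after the knockdown, and once each library was corrected for GC content and for length of transcripts, the calls among the 5 became 3 higher (STC1, STC2 and VEGFC) and 1 lower (VEGFA), against 22.4% and 24.5% of all genes (46.8% in either direction).

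**Figure D1:**
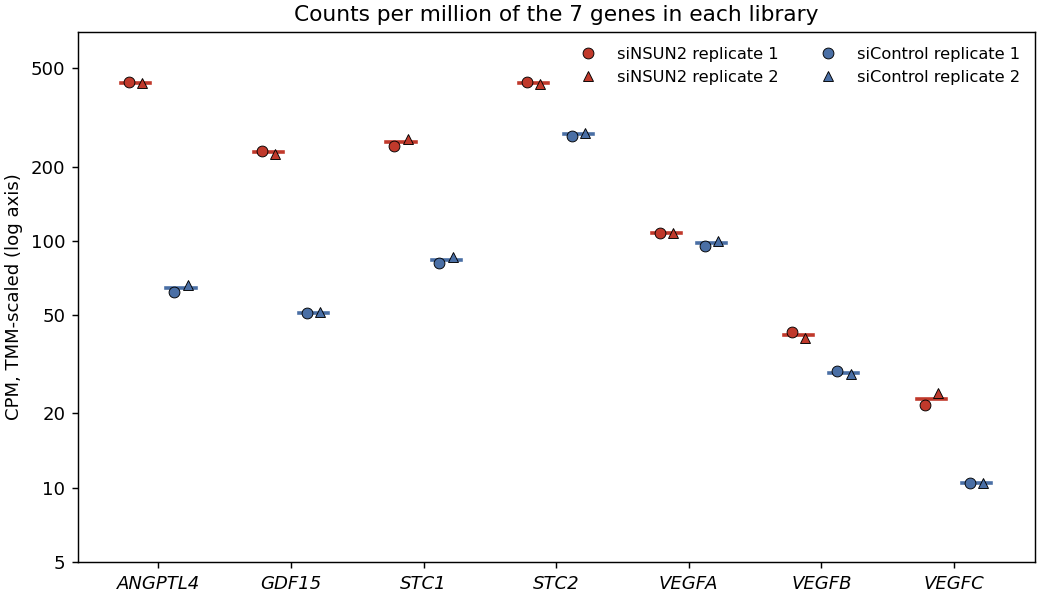
CPM (TMM-scaled counts, log axis) of the 7 genes in each library, with red for siNSUN2, blue for siControl, circles for replicate 1, triangles for replicate 2 and a bar at the mean of each pair. ANGPTL4 stands at 441 and 435 CPM in siNSUN2 cells against 62.2 and 66.5 CPM in siControl cells, while the groups of VEGFA lie close together, at 108 and 107 CPM against 95.6 and 99.5 CPM.

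ANGPTL4 (ENSG00000167772), the lipoprotein lipase inhibitor, had the largest difference of the group. It was at 441 and 435 CPM in siNSUN2 cells (438 ± 3.91, SD, n = 2), against 62.2 and 66.5 CPM in siControl cells (64.4 ± 3.06, n = 2). The lowest siNSUN2 library stood 6.54 times above the highest siControl library, while libraries of 1 group differed by at most 1.07 times. The log2 fold change was 2.76 (SE 0.047), first in order among 10732 genes with average log2 CPM of at least 2, as its selection implies. With GC and length trends taken off, it was 2.21 (SE 0.034). The exons of ANGPTL4 share 1 base with those of RAB11B-AS1 on the opposite strand, and the strand setting of the counting is not stated.

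GDF15 (ENSG00000130513) was at 231 and 225 CPM in siNSUN2 cells (228 ± 3.70, n = 2), against 50.9 and 51.4 CPM in siControl cells (51.1 ± 0.335, n = 2). The groups did not overlap, and its log2 fold change of 2.16 (SE 0.041) was 15th in the same order of 10732 genes. The value was 1.81 (SE 0.031) with GC and length trends taken off. The receptor gene GFRAL had 0 counts in every library, and the co-receptor gene RET was at 0.0653 and 0.117 CPM in siNSUN2 cells, against 0 and 0.0611 CPM in siControl cells.

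The promoters of ANGPTL4 and GDF15 are shown because these genes differed most, with that of VEGFC for comparison. The windows run from 250 bases before to 50 after the start in RefSeq (GRCh38.p14) and are given 5′ to 3′ on the gene's own strand, at chr19:8363905-8364204 (plus strand) for ANGPTL4, chr19:18385908-18386207 (plus strand) for GDF15 and chr4:176792873-176793172 (minus strand) for VEGFC. Capitals mark matches, on either strand, to 3 motifs. These are ACGTG, a form of the core of a hypoxia response element, the GC box, spelled GGGCGG, and the TATA box, spelled TATAAA. The other form of that core, GCGTG, was not searched for and is not marked.
ANGPTL4: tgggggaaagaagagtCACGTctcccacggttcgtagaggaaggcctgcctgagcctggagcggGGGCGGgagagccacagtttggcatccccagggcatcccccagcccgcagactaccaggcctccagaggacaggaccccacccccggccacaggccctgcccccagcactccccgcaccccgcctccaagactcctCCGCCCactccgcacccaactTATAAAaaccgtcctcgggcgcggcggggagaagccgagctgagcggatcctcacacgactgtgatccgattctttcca
GDF15: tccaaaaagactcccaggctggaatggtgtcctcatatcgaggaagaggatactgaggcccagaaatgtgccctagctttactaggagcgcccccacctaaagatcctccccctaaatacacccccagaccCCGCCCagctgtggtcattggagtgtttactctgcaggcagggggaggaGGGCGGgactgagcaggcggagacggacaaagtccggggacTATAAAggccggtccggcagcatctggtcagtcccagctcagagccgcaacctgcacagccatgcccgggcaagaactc
VEGFC: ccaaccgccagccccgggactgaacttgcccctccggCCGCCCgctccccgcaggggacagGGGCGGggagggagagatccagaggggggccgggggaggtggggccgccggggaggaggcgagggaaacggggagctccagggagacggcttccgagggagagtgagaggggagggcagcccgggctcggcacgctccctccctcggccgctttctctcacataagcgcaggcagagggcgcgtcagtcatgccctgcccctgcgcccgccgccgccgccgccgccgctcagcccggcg

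In this window ANGPTL4 held 1 match to ACGTG, at −234 on the opposite strand, and both ANGPTL4 and GDF15 held TATAAA at −29 on the gene's strand. Of the 5 members found in the RefSeq table (STC2 and VEGFB besides these), 1 matched ACGTG, 2 matched TATAAA and 4 matched GGGCGG, while these words occur in 21.4%, 11.5% and 45.0% of all 35116 promoters of the same length. TATAAA was added to the search after the sequences had been seen. STC2 held none of the 3 words. TGATGNAA (an amino acid response element bound by ATF4), the PPAR direct repeat, CACGTG (an E-box) and TGACGTCA (a CRE) had no match in these 5 windows and are found in 3.62%, 0.0228%, 7.26% and 1.85% of all promoters. The search covered these letters on both strands and says nothing about binding or sites farther away. CACGTG contains ACGTG, so their matches can overlap.

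The stanniocalcins are glycoprotein hormones, known first from calcium control in fish, that are made by many mammalian tissues. STC1 (ENSG00000159167) was at 243 and 259 CPM in siNSUN2 cells (251 ± 11.1, n = 2), against 81.1 and 85.7 CPM in siControl cells (83.4 ± 3.24, n = 2). It rose 3.0-fold, by 1.59 on the log2 scale (SE 0.049, edgeR quasi-likelihood adjusted p = 4.14e-08), and by 1.76 with GC and length trends taken off. Of the 7 genes, STC1 alone had ACCCTA in its longest 3′ UTR, a word picked from an earlier search of these same data and found in 19.8% of 18652 searched 3′ UTRs.

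STC2 (ENSG00000113739), also a known ATF4 target, was the most abundant member per length in siControl cells. It was at 440 and 433 CPM in siNSUN2 cells (436 ± 5.29, n = 2), against 267 and 274 CPM in siControl cells (271 ± 5.18, n = 2). It rose 1.61-fold, by 0.69 on the log2 scale (SE 0.039, edgeR quasi-likelihood adjusted p = 7.82e-07), and by 0.60 with GC and length trends taken off. Its full-length coding sequence holds the longer word AACCCTA (in capitals), at position 506 counted from the A of the start codon, whereas its 3′ UTR has no ACCCTA. The stretch is shown as the 1 match to this word in a coding sequence of the 7 genes. It is in 1 of 3 coding transcripts of STC2. No share of all coding sequences with this word is given, so the match has no background to be compared with.
STC2 coding sequence: gctgctgcacgAACCCTAcgtggacctcg

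Because STC1 rose more than STC2, the balance between them differed. Per length (CPM divided by the mean length of annotated coding transcripts), STC1 made up 29.6% and 31.3% of the STC1 and STC2 total in siNSUN2 cells, against 18.8% and 19.2% in siControl cells. These ranges did not overlap. With the longest transcript as length, the shares were 43.2% and 45.2% against 29.5% and 30.1%. With 2 libraries against 2, an exact permutation test of such a share cannot give a p below 0.333, so no test is given.

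The VEGF ligands share a cystine-knot fold and act on the receptor tyrosine kinases FLT1, KDR and FLT4. VEGFC (ENSG00000150630), the lymphatic ligand, was at 21.7 and 24.1 CPM in siNSUN2 cells (22.9 ± 1.69, n = 2), against 10.4 and 10.5 CPM in siControl cells (10.4 ± 0.0481, n = 2). It rose 2.19-fold, by 1.13 on the log2 scale (SE 0.074, edgeR quasi-likelihood adjusted p = 1.82e-06), and by 1.12 with GC and length trends taken off. Its smallest count, 442 in siControl replicate 1, was the smallest of any of the 7 genes.

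VEGFA (ENSG00000112715), the main angiogenic ligand and a classical HIF target, had the smallest difference before the GC and length correction. It was at 108 and 107 CPM in siNSUN2 cells (108 ± 0.391, n = 2), against 95.6 and 99.5 CPM in siControl cells (97.6 ± 2.76, n = 2). The rise of 0.14 on the log2 scale (SE 0.042, edgeR quasi-likelihood adjusted p = 0.0183) was 0.047 without siControl replicate 1 (adjusted p = 0.535). It also missed the threshold without siNSUN2 replicate 1 (0.13, adjusted p = 0.056), with DESeq2 (0.12, adjusted p = 0.0536) and without a low-count filter (0.16, adjusted p = 0.0683). With GC and length trends taken off, the direction turned, to −0.16 (adjusted p = 0.00678). In GENCODE release 29, 188 bases of VEGFA exons also belong to an antisense gene, so its count is uncertain.

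VEGFB (ENSG00000173511), a ligand of FLT1 linked to fatty acid uptake in mouse tissues, was at 42.8 and 40.5 CPM in siNSUN2 cells (41.6 ± 1.62, n = 2), against 29.6 and 28.8 CPM in siControl cells (29.2 ± 0.562, n = 2). It rose 1.43-fold, by 0.51 on the log2 scale (SE 0.052, edgeR quasi-likelihood adjusted p = 3.13e-05). With GC and length trends taken off, the call was lost and the value was −0.010 (SE 0.046, adjusted p = 0.88).

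Because VEGFB and VEGFC both rose more than VEGFA, the makeup of the VEGF transcripts differed. The shares were not corrected for GC and length trends, and with these taken off VEGFB was not higher (log2 fold change −0.010). Per length, VEGFA made up 59.4% and 59.9% of the VEGFA, VEGFB and VEGFC total in siNSUN2 cells, against 66.5% and 67.8% in siControl cells. VEGFC made up 7.09% and 7.97% in siNSUN2 cells, against 4.29% and 4.23% in siControl cells. VEGFB made up 33.5% and 32.1% in siNSUN2 cells, against 29.3% and 27.9% in siControl cells. None of these pairs of ranges overlapped. With the longest transcript as length, VEGFA made up 42.4% and 42.5% against 50.5% and 52.0%.

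**Figure D2:**
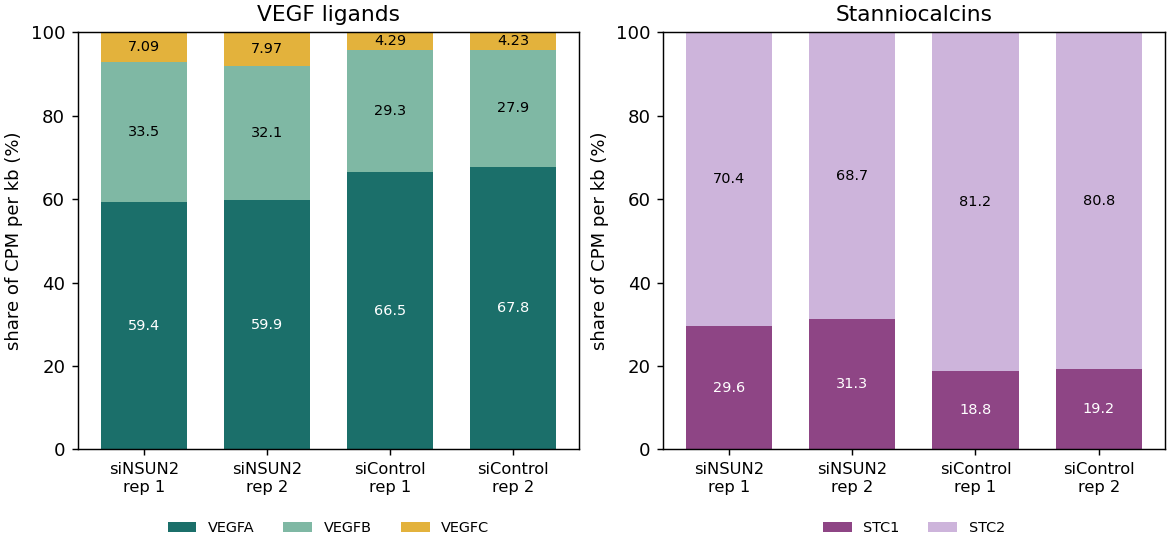
Shares of CPM per kb (%, mean length of coding transcripts) within the VEGF ligands (left) and the stanniocalcins (right), with 1 bar per library and 1 colour per gene. VEGFC takes 7.09% and 7.97% in siNSUN2 libraries against 4.29% and 4.23% in siControl libraries, and STC1 takes 29.6% and 31.3% against 18.8% and 19.2%.

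The order of levels per length also differed between the groups. In siNSUN2 cells ANGPTL4 stood first at 434 ± 3.87 CPM per kb (SD, n = 2 here and below), followed by GDF15 at 258 ± 4.19, STC2 at 203 ± 2.46, STC1 at 89.1 ± 3.95, VEGFA at 88.0 ± 0.32, VEGFB at 48.3 ± 1.88 and VEGFC at 11.1 ± 0.817 CPM per kb. Of these neighbours, STC1 and VEGFA did not differ beyond their spread with this length. In siControl cells STC2 stood first at 126 ± 2.41 CPM per kb, followed by VEGFA at 79.7 ± 2.26, ANGPTL4 at 63.8 ± 3.04, GDF15 at 57.9 ± 0.379, VEGFB at 33.9 ± 0.653, STC1 at 29.6 ± 1.15 and VEGFC at 5.06 ± 0.0233 CPM per kb. With the longest transcript as length, ANGPTL4, GDF15 and STC2 led in siNSUN2 cells in the same order. There STC1 (64.58 CPM per kb) stood apart from VEGFA (30.45), which lay close to VEGFB (30.17). In siControl cells STC2 stayed first, but GDF15 (42.6 CPM per kb) and ANGPTL4 (34.2) then stood above VEGFA (27.6), so that this part of the order depends on the length used.

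GC content set the members apart. Their coding transcripts averaged 64.1% GC in ANGPTL4, 63.4% in VEGFB, 59.8% in GDF15, 58.4% in VEGFA, 53.2% in STC2, 51.4% in VEGFC and 43.9% in STC1. ANGPTL4, GDF15, VEGFA and VEGFB fell among the 3257 tested genes of highest GC content, whose median log2 fold change was 0.51 and of which 58.9% were called higher. STC1 fell among 3257 genes of 42.7% to 46.8% GC with a median of −0.15, of which 15.0% were called higher. With the trends taken off, STC1 had 1.76, VEGFC 1.12 and STC2 0.60 on the log2 scale, each still called, while VEGFA and VEGFB were not higher.

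**Figure D3:**
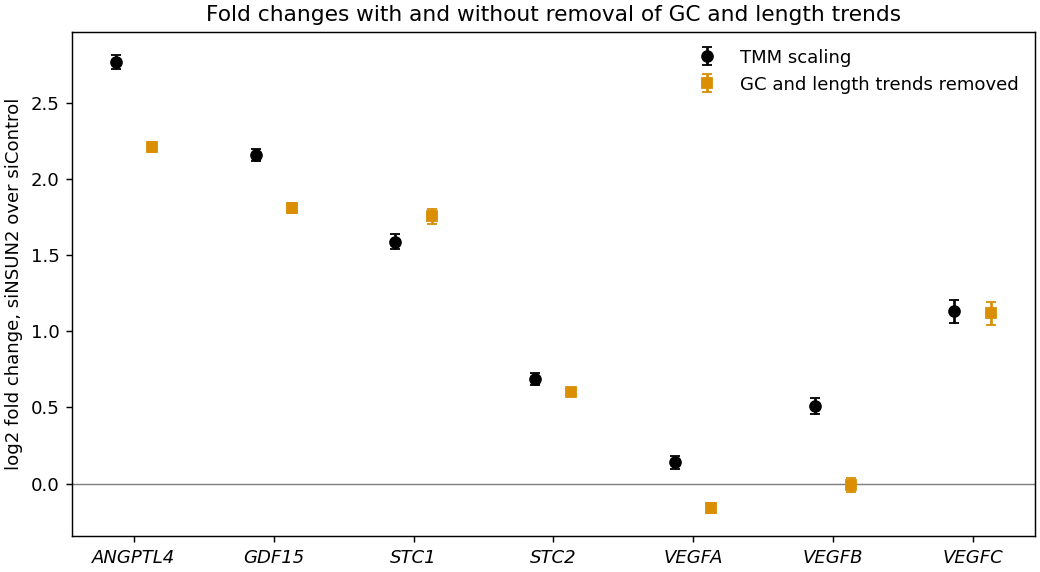
Log2 fold changes of the 7 genes, siNSUN2 over siControl, with TMM scaling (black circles) and after correction for GC content and length (orange squares). Bars are standard errors. ANGPTL4 goes to 2.21 and GDF15 to 1.81, STC1 to 1.76, and VEGFA and VEGFB to −0.16 and −0.010.

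Several receptors of these proteins were at or near 0 in T24 cells, and in a bulk sample fewer expressing cells and less RNA per cell cannot be told apart. Of 7 VEGF receptors, co-receptors and other ligands, 4 had enough counts to test, and 1 rose, beside 27.1% of all genes called higher. This was NRP1, a co-receptor of VEGFA, at 37.5 and 37.7 CPM in siNSUN2 cells against 27.4 and 28.1 CPM in siControl cells (log2 fold change 0.44, edgeR adjusted p = 7e-05). The receptor genes FLT1, KDR and FLT4 stayed below 0.4 CPM in every library. Lipoprotein lipase, the enzyme that ANGPTL4 inhibits, had an LPL level of at most 0.0094 CPM in any library. The 3 tested genes among 12 angiopoietin-like relatives and lipase genes, LMF1, LIPG and LIPC, did not pass (edgeR adjusted p = 0.447 to 0.757). The other angiopoietin-like genes listed were each at or below 0.188 CPM in every library.

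VEGFC and GDF15 are made as precursors that proteases cut. Of 5 tested processing genes, 2 rose, 2 fell and 1 did not pass, beside 27.1% of all genes called higher and 25.5% called lower. After the GC and length correction 1 rose and 2 fell, beside 22.4% and 24.5% of all genes. FURIN, the main proprotein convertase, was at 93.0 and 91.2 CPM in siNSUN2 cells against 55.6 and 57.5 CPM in siControl cells (log2 fold change 0.70, or 0.19 after the GC and length correction). ADAMTS3, the protease that activates VEGFC, fell to 6.23 and 6.46 CPM in siNSUN2 cells, against 9.11 and 9.45 CPM in siControl cells (log2 fold change −0.55). PCSK6 fell by 0.61 on the log2 scale, and by 0.54 without siNSUN2 replicate 1, where the call was lost (edgeR adjusted p = 0.0691). GDF11, a relative of GDF15 in the TGF-beta superfamily, fell to 6.51 and 6.69 CPM in siNSUN2 cells, against 11.7 and 11.5 CPM in siControl cells (log2 fold change −0.81).

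On the side of the stanniocalcins, 4 of 5 tested genes of the IGF system rose, beside 27.1% of all genes called higher. The other, PAPPA2, did not pass (log2 fold change 0.45). The list median was 0.67, beside 0.026 for all genes tested. With GC and length trends taken off, 4 rose, beside 22.4% of all genes, and the list median was 0.45. With DESeq2, and without any 1 of the 4 libraries, 3 rose, while IGF2, IGFBP4 and IGF1R were called in each of these fits. IGF2 was at 33.9 and 32.0 CPM in siNSUN2 cells against 14.5 and 16.5 CPM in siControl cells (log2 fold change 1.08, or 0.66 after the GC and length correction). Reads of IGF2 can be shared with the read-through gene INS-IGF2, so its count is uncertain. IGFBP4, the binding protein that PAPP-A cuts, was at 146 and 148 CPM against 91.0 and 94.3 CPM (log2 fold change 0.66, and 0.13 with the trends taken off). IGF1R, the receptor, rose by 0.67 on the log2 scale. PAPPA was low in every library, at 0.403 and 0.497 CPM in siNSUN2 cells against 0.188 and 0.118 CPM in siControl cells.

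Of 15 transcription factors known to act on these genes, all tested, 8 rose, 2 fell and 5 did not pass, beside 27.1% of all genes called higher and 25.5% called lower. After the GC and length correction 6 rose and 2 fell, beside 22.4% and 24.5% of all genes. HIF1A, the oxygen-regulated factor that acts on VEGFA and ANGPTL4, had the largest fall, to 84.3 and 79.3 CPM in siNSUN2 cells, against 262 and 268 CPM in siControl cells (log2 fold change −1.70, SE 0.045, edgeR adjusted p = 2.97e-08, and −1.44 with GC and length trends taken off). Its partner ARNT rose by 0.20 on the log2 scale, and EPAS1, which encodes HIF-2α, had a log2 fold change of 0.057 (adjusted p = 0.613). DDIT3, which encodes the stress factor CHOP, was at 67.5 and 63.7 CPM in siNSUN2 cells against 24.8 and 24.5 CPM in siControl cells (log2 fold change 1.41). ATF4 itself rose by 0.18, and had 0.020 with the trends taken off, where it was not called (adjusted p = 0.64). Of the PPAR receptors PPARG rose by 0.72 and PPARD by 0.50 (0.15 with the trends taken off), PPARA fell by 0.43, and their partner RXRA rose by 0.83 (0.12 with the trends taken off, adjusted p = 0.0666).

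The 3′ UTR of HIF1A holds 1 ACCCTA, at base 921 after the stop codon. It is 1 of 7 with at least 1 match among the 34 named genes (members included, NSUN2 not counted). The word is in 19.8% of 18652 searched 3′ UTRs, so 7 among 34 is close to the share of all genes. The HIF1A site is printed because HIF1A had the largest fall of these 34, with the word in capitals.
HIF1A 3′ UTR site: aaagaaaacaatACCCTAtgtagttgtgga

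Among the 7 genes with the word, HIF1A, PCSK6 and GDF11 were lower and FURIN, IGF1R, BMF and STC1 higher. Whether the word bears on any of these values was not tested.

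Of 19 tested HIF target genes, 7 rose, 7 fell and 5 missed the threshold (median log2 fold change −0.033), an even split like that of all genes (27.1% higher and 25.5% lower). NDRG1, a hypoxia- and stress-responsive gene, was at 45.2 and 45.4 CPM in siNSUN2 cells against 11.04 and 9.65 CPM in siControl cells (log2 fold change 2.14). P4HA2, a collagen prolyl hydroxylase gene, rose by 1.15 and the repressor gene BHLHE40 by 0.76 on the log2 scale. The falls were those of PDK1 (−0.68), P4HA1 (−0.42), LDHA (−0.39), PFKFB4 (−0.36), PGK1 (−0.32), BNIP3L (−0.22) and INSIG2 (−0.20). With GC and length trends taken off, 6 rose and 8 fell (median −0.088), beside 22.4% of all genes called higher and 24.5% called lower. CA9, a widely used marker of HIF activity, was at 0.0235 CPM or less in every library. Of the 4 tested oxygen sensors VHL alone rose, by 0.26, beside 27.1% of all genes called higher. EGLN1, EGLN2 and HIF1AN did not pass (log2 fold changes −0.096, 0.87 and −0.12). After the GC and length correction HIF1AN was called lower (−0.15, edgeR adjusted p = 0.0291), beside 24.5% of all genes, and VHL stayed higher (0.35).

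ATF4 target genes were mostly higher. Of 21 tested, 18 rose, 2 fell and 1 did not pass, beside 27.1% of all genes called higher and 25.5% called lower. Their median log2 fold change was 0.83, beside 0.026 for all genes. ATF3, a stress-induced repressor, was at 197 and 190 CPM in siNSUN2 cells against 71.1 and 71.4 CPM in siControl cells (log2 fold change 1.44). DDIT4, an inhibitor of mTORC1, rose by 1.40 and PPP1R15A, a phosphatase subunit gene that restores translation, by 1.32. The falls were those of PSAT1 (−0.73) and ASNS (−0.15), enzymes of serine and asparagine synthesis. With GC and length trends taken off, 14 rose and 3 fell, with a median of 0.53, beside 22.4% of all genes called higher and 24.5% called lower. The falls were then those of PSAT1, SLC7A5 and ATF5, and ASNS was no longer called (−0.011, edgeR adjusted p = 0.807). Many of these genes were already known to be higher in these data, so the list is not independent support for the members.

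Of 9 tested PPAR target genes, the class to which ANGPTL4 belongs, 3 rose, 1 fell and 5 missed the threshold (median 0.13). The count called higher was near the 27.1% of all genes. With GC and length trends taken off, 6 rose and 1 fell (median 0.27), beside 22.4% of all genes called higher and 24.5% called lower. CPT1A, which brings fatty acids into mitochondria, was at 103 and 100.4 CPM in siNSUN2 cells against 50.6 and 53.9 CPM in siControl cells (log2 fold change 0.96). ACADVL, an enzyme of fatty acid oxidation, rose by 0.85 (0.46 with the trends taken off). PDK4, a common marker of PPAR activity, was below 0.5 CPM in every library, and PLIN2 below 0.06 CPM.

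Other secreted factors induced by stress were mostly higher. Of 18 tested, 12 rose, 2 fell and 4 did not pass, beside 27.1% of all genes called higher and 25.5% called lower. The median log2 fold change was 0.90, beside 0.026 for all genes. With GC and length trends taken off, 11 rose and 2 fell, beside 22.4% and 24.5% of all genes. This list too was chosen with earlier results of these data known. CSF1, the macrophage growth factor, was at 40.4 and 38.3 CPM in siNSUN2 cells against 10.5 and 10.8 CPM in siControl cells (log2 fold change 1.88). The cytokine gene IL6 was at 28.8 and 26.8 CPM against 8.87 and 8.60 CPM (1.68), and HBEGF, an EGF receptor ligand, at 285 and 291 CPM against 138 and 145 CPM (1.03). The falls were those of TGFA (−0.76) and EDN1 (−0.19). After the GC and length correction EDN1 was no longer called (−0.020, edgeR adjusted p = 0.706), and the falls were those of TGFA and ADM (−0.41). FGF21, which like GDF15 is induced through ATF4 in other tissues, was at 0.0109 CPM or less in every library.

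**Figure D4:**
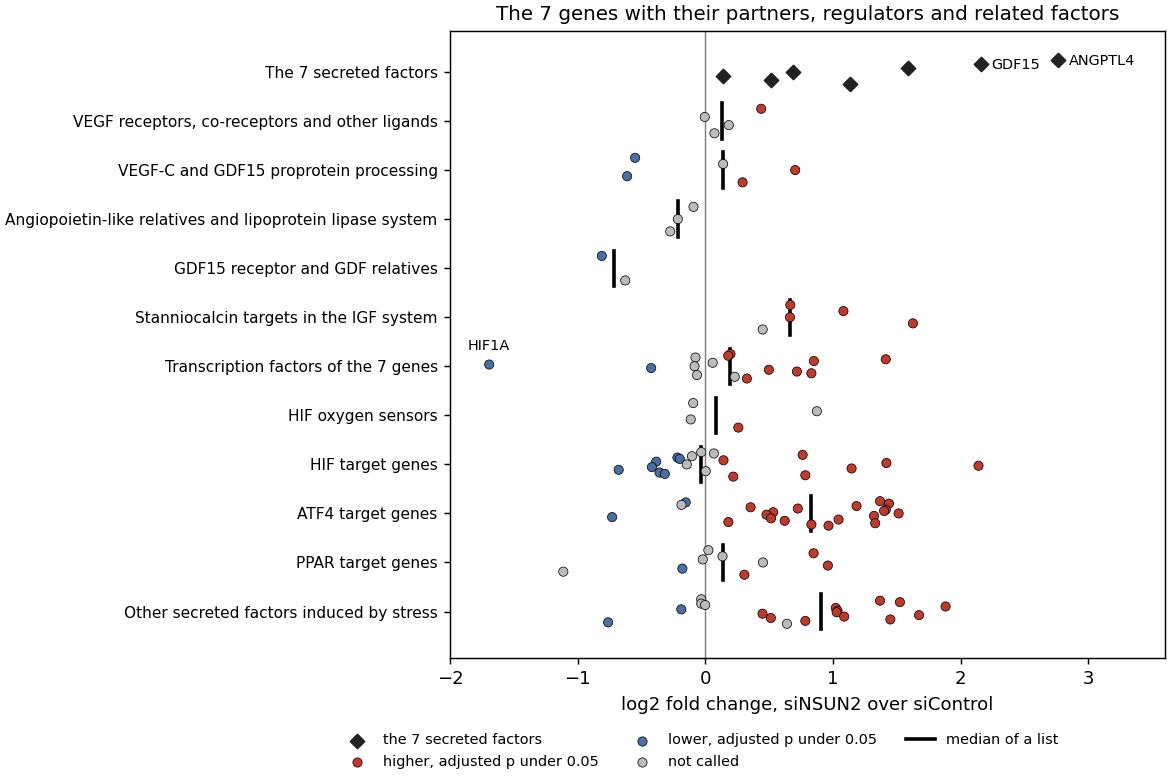
Log2 fold changes, siNSUN2 over siControl, of the 7 secreted factors (diamonds, top row) and of the tested members of each gene list (circles, red for higher and blue for lower at adjusted p under 0.05, grey for not called), with a bar at each list's median. HIF1A lies far left at −1.70, while the medians of ATF4 targets and of other secreted factors lie at 0.83 and 0.90.

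Over the 4 libraries, the genes whose profile of log2 CPM around its own mean lay nearest to that of ANGPTL4, among 10659 others with average log2 CPM of at least 2 over the 4 libraries weighted equally, were DNAJB9, an ER co-chaperone gene, at a Euclidean distance of 0.11, the small GTPase gene GEM at 0.27 and the keratin gene KRT15 at 0.37 log2 units. DNAJB9 was at 81.5 and 84.4 CPM in siNSUN2 cells against 11.6 and 13.5 CPM in siControl cells. Nearest to GDF15 were SIK1, a salt-inducible kinase gene, at 0.11, UAP1L1 at 0.15 and BMF, a pro-apoptotic BCL2 family gene, at 0.15 log2 units. SIK1 was at 88.5 and 92.8 CPM in siNSUN2 cells against 18.8 and 20.3 CPM in siControl cells, and a near-identical gene copy in newer assemblies makes its count uncertain. With 4 libraries in 2 groups these distances mostly reflect the size of the difference between the groups.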

How the data were processed

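Raw counts by Ensembl gene were deposited for the 4 libraries in 1 table. HISAT2, HTSeq and build hg19 are named in the submitters' processing notes, while versions, annotation and strand setting are not stated there. Groups came from the sample titles. Every value column was used. Libraries of 1 group differed beyond counting error (chi-square per degree of freedom 12.4 in siNSUN2 and 18.8 in siControl), so each counted as 1 replicate. Some lists share genes, such as DDIT3 and ADM2.

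Counts were tested with edgeR 4.0.16 in R 4.3.3 (robust quasi-likelihood F-test with TMM factors and filterByExpr, without a block), two-sided, with Benjamini-Hochberg adjustment over 16889 genes and a threshold of 0.05. Log2 fold changes run siNSUN2 over siControl. Standard errors came from the F statistic. Symbols were found for 51535 IDs. Lengths and GC content came from GENCODE release 29 and promoters from RefSeq (GRCh38.p14). GC and length trends were taken off with loess offsets (span 0.5) per library. DESeq2 1.42.0, limma-voom (limma 3.58.1) and other settings were alternatives.

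Members and lists were chosen with earlier results of these data known. The text names the 7 members, NSUN2, from each list up to 3 called genes with the smallest p and a log2 fold change of at least 0.5 in size, and the 3 nearest profiles to ANGPTL4 and to GDF15. NRP1, PAPPA, PAPPA2, ARNT, EPAS1, ATF4, PPARG, PPARD, PPARA, PSAT1, ASNS, SLC7A5, ATF5, TGFA, EDN1, ADM, the marker genes and genes named as low or not passing were chosen after their values were seen. So were the 7 HIF target genes named as lower.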

Additional observations from a re-analysis of the deposited data

How the results depend on the processing

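Among the 5 members not picked for their rises, 3 were higher and 1 lower with GC and length trends taken off. The same counts held with these trends and the replicate block together, and 3 were higher when a fold change of at least 1.5 was asked for. No share of all genes is given for that fold change. The reversed values with the trends taken off were −0.16 for VEGFA and −0.010 for VEGFB, and with the replicate block added −0.16 and −0.012. The replicate block alone changed no call of a member (VEGFA 0.14, VEGFC 1.13). Same-numbered libraries deviated together with a correlation of 0.20 over genes, with 2 pairs only, so the numbers do not show a pairing. Leaving out each library in turn gave 2.65 to 2.80 for ANGPTL4, 2.08 to 2.18 for GDF15, 1.48 to 1.63 for STC1, 0.60 to 0.71 for STC2, 0.46 to 0.56 for VEGFB and 1.06 to 1.20 for VEGFC. VEGFA ranged from 0.047 to 0.155. Without siControl replicate 1, the log2 fold changes of all genes shifted by a median of −0.0669. PCSK6 also missed the threshold with libraries thinned to the shallowest total (−0.49, adjusted p = 0.0641). Of the 4 oxygen sensor genes, 2 were called lower with RLE factors, with the replicate block and without siControl replicate 1.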
